A study of Rattus norvegicus with 16 samples.

Results

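Aldo-keto reductases (AKR) and aldehyde dehydrogenases (ALDH) are the main enzyme families that clear reactive aldehydes from cells. AKR enzymes use NADPH to reduce aldehydes and ketones to alcohols, whereas ALDH enzymes use NAD or NADP to oxidize aldehydes to acids. Through single members they also serve sorbitol formation, steroid and retinoid metabolism and the breakdown of amino acids, and the kidney tubule is rich in several of them. Members were all genes of the count table with a symbol that starts with Akr or Aldh and a digit, leaving out 2 of 35 such genes, and 33 of the 32623 genes remained. Of these, 17 were AKR and 16 were ALDH genes.

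RNA sequencing of poly(A)-enriched RNA covered 16 libraries, 4 each of NRK-52E and NRK-49F cells kept in control medium or in acidic medium (acidosis). NRK-52E is an established epithelial line and NRK-49F an established fibroblast line, both from normal rat kidney. The labels write the pH as 7 or 6, and the study's methods give 7.4 for control and 6.0 for acidosis. All cells were in indirect co-culture, without added serum for 24 h and then in the experimental medium for 48 h. NRK-52E cells sat on filter inserts and NRK-49F cells in the wells below, so the cell line and its place cannot be told apart, and the methods leave a small chance that a few fibroblasts stayed on the membrane. The 4 groups were NRK-52E at pH 7.4 (libraries N1, N2, N5 and N6), NRK-52E at pH 6.0 (N3, N4, N7 and N8), NRK-49F at pH 7.4 (N9, N10, N13 and N14) and NRK-49F at pH 6.0 (N11, N12, N15 and N16).

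Counted fragments per library ranged from 17760185 to 20612657 for NRK-52E at pH 7.4, from 16844811 to 23856187 for NRK-52E at pH 6.0, from 17518187 to 27607214 for NRK-49F at pH 7.4 and from 16201084 to 34784862 for NRK-49F at pH 6.0. Levels are given as FPM, the counted fragments scaled to a common library size in edgeR with the TMM method, and since FPM is not corrected for transcript length, any ranking of genes by it holds for fragments only. A gene was a differentially expressed gene (DEG) when its false discovery rate over all genes tested was below 0.01 in both edgeR and DESeq2 with the same sign. Fold changes, their standard errors (SE) and the adjusted p-values given here are from edgeR's quasi-likelihood test, with 4 libraries per group. The labels do not say whether libraries of a group came from separate cultures, so the p-values measure only the spread between these libraries.

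The cell lines were checked against marker genes. Col1a1 stood at a mean of 6205 FPM in NRK-49F at pH 7.4 against 23.6 FPM in NRK-52E, and Pdgfra at 392 against 0.286 FPM. Ocln, a tight junction gene, had 41.2 FPM in NRK-52E at pH 7.4 and no count in NRK-49F at that pH. However, Thy1 and Esrp1 had no count in any library, and the proximal tubule marker Slc34a1 had none in NRK-52E. Epcam and Krt18 reached at most 0.114 and 0.180 FPM in any library. By FPM, Krt8 was the highest of the 10 epithelial markers in all libraries, Aqp1 of the 8 proximal tubule markers in NRK-52E (Anpep in 1 control library) and Ggt1 in NRK-49F. At pH 7.4 Krt8 was higher in NRK-49F (782 to 947 FPM) than in NRK-52E (387 to 462 FPM), against the labels. At pH 6.0 it was lower in NRK-49F (197 to 219 FPM) than in NRK-52E (292 to 352 FPM). Col3a1 was the highest fibroblast marker of NRK-52E and reached 6221 FPM there at pH 7.4 against 458 FPM in NRK-49F, where Vim led at pH 7.4 and Col1a1 at pH 6.0. Thus NRK-52E is called epithelial here after its label, with proximal tubule markers at low levels and at a lower sum than in NRK-49F.

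Marker levels moved with the pH as well. The summed level of the 10 epithelial markers was 432 to 508 FPM in the control and 302 to 364 FPM in the acidosis libraries of NRK-52E, where 4 of 4 tested markers fell. In NRK-49F the sum was 786 to 950.2 FPM and 199 to 221 FPM, with 2 of 3 tested markers lower. Krt8 made up most of this sum in every library of both lines. The 10 fibroblast markers summed to 6895 to 7338 FPM and 2332 to 3675 FPM in NRK-52E (1 higher and 5 lower of 7 tested), and to 13771 to 15112 FPM and 10339 to 12135 FPM in NRK-49F (1 higher and 4 lower of 8). The 8 proximal tubule markers summed to 56.3 to 74.9 FPM and 25.9 to 36.9 FPM in NRK-52E (2 lower of 5), and to 142 to 195 FPM and 364 to 560.4 FPM in NRK-49F (1 higher and 2 lower of 5). Over all genes tested, 28.2% were higher and 28.5% lower in NRK-52E, and 18.4% were higher and 19.4% lower in NRK-49F. With so few markers tested, these counts were not set against those shares by a test. The part of the marker shifts in the results was not tested. In bulk RNA, fewer cells of a type and less RNA per cell cannot be told apart.

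To see how acidosis affected the families, pH 6.0 was compared with pH 7.4 within each cell line. Of the 33 members, 29 had at least 1 count. Low counts kept 13 members out of the test in NRK-52E and 15 in NRK-49F, so that 20 and 18 were tested. In NRK-52E 13 of the 20 were DEGs, 4 higher and 9 lower, where 56.7% of all 13735 genes tested were DEGs (28.2% higher, 28.5% lower). In NRK-49F 13 of the 18 were DEGs, 3 higher and 10 lower, where the share over 13339 genes was 37.8% (18.4% higher, 19.4% lower). The groups did not overlap for 14 of 20 members in NRK-52E (62.9% over all genes) and for 12 of 18 in NRK-49F (48.2%). The median log2 fold change of the tested members was −0.52 for NRK-52E against −0.43 for NRK-49F, where the median of all genes tested was 0.00 each time.

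Among AKR genes, 4 rose and 2 fell of 10 tested in NRK-52E, and 3 rose and 3 fell of 9 tested in NRK-49F, with median log2 fold changes of −0.04 and 0.13. Among ALDH genes, 7 of 10 fell in NRK-52E and 7 of 9 fell in NRK-49F, with medians of −0.57 and −0.55. Of all genes tested, 28.2% rose and 28.5% fell in NRK-52E, and 18.4% rose and 19.4% fell in NRK-49F. The families were not tested against each other. In these tests within each line, 0 ALDH genes rose in both tools together. At an unadjusted edgeR p below 0.05 there were 0 higher ALDH genes in NRK-52E and 2 in NRK-49F (Aldh3a1 and Aldh3a2), and DESeq2 alone called 1 in each line (Aldh1l1 in NRK-52E, Aldh3a2 in NRK-49F). In one fit of all 16 libraries and with no filter on low counts, 5 members rose in NRK-52E in place of 4, with Aldh1l1 added. Aldh3a2 in NRK-49F was also called higher in one fit of all 16 libraries (0.28) and, at 0.33, when libraries were scaled by their totals. The latter scaling moved the median of all genes to −0.21 in NRK-52E and to 0.04 in NRK-49F, and the share of higher genes among the DEGs of NRK-52E from 49.7% to 37.6%.

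**Figure D1:**
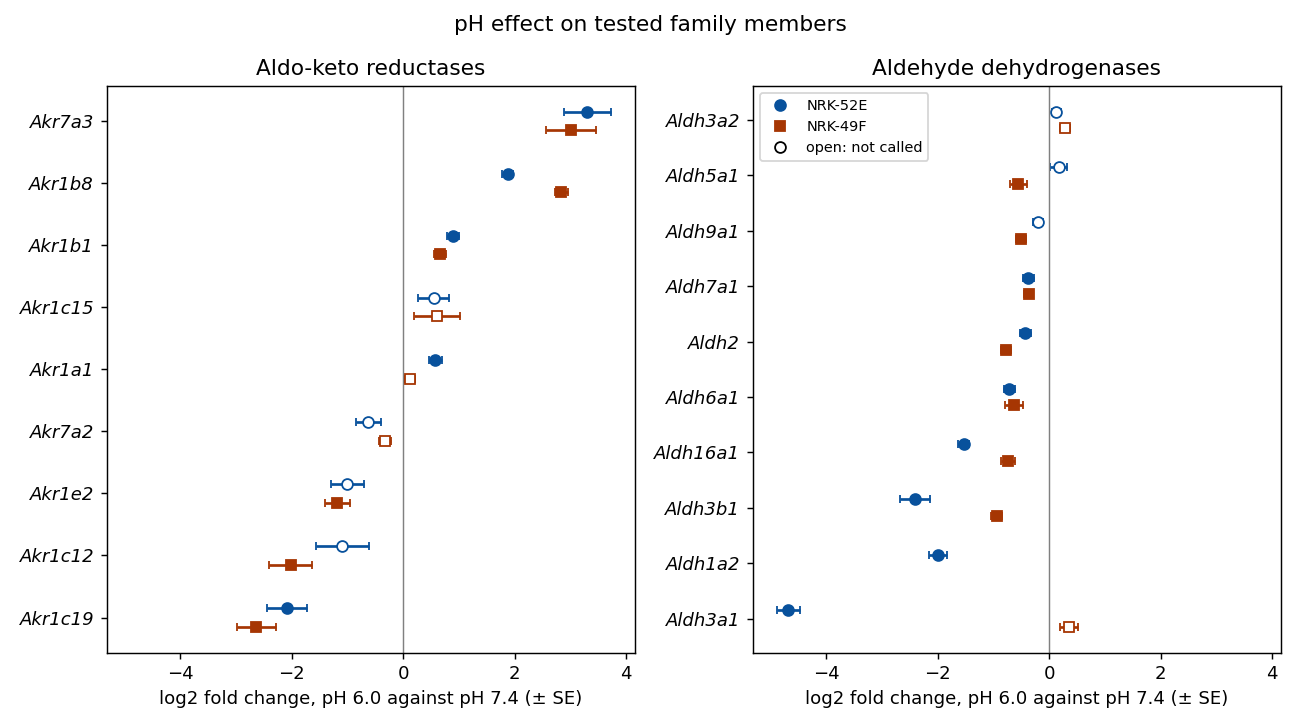
Log2 fold change (x axis) of pH 6.0 against pH 7.4 for tested members, with bars of ± 1 SE, n = 4 libraries per group, circles for NRK-52E, squares for NRK-49F and open symbols for members that were not DEGs. Akr1c14 is not drawn because 3 of its 4 acidosis libraries had a count of 0, and Aldh3a1 shows the widest gap between the lines, at −4.68 and 0.36.

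Of the 18 members tested in both lines, 9 were DEGs in both and all 9 had the same sign, against 19.5% of the 12470 genes tested in both lines. Akr1b8, Akr1b1 and Akr7a3 rose, and Akr1c19, Aldh3b1, Aldh16a1, Aldh6a1, Aldh2 and Aldh7a1 fell. With opposite signs there were 0 members by both tools and by DESeq2 alone (4.28% of all genes by both tools), and 1, Aldh3a1, at an unadjusted edgeR p below 0.05. Akr1a1 and Aldh3a1 were DEGs in NRK-52E alone, and Akr1c12, Akr1e2, Aldh9a1 and Aldh5a1 in NRK-49F alone. Akr7a2, Aldh3a2 and Akr1c15 passed in neither line. Aldh1a2 and Akr1c14 were tested by pH in both tools in NRK-52E only, and DESeq2 alone called Akr1c14 lower in NRK-49F.

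The AKR1B enzymes include aldose reductase, which reduces glucose to sorbitol, and related enzymes that prefer lipid and retinoid aldehydes. Akr1b8, an aldose reductase-like enzyme, stood at 46.0, 42.6, 36.9 and 39.3 FPM in N1, N2, N5 and N6 and at 174, 151, 145 and 141 FPM in N3, N4, N7 and N8. In the fibroblasts it stood at 966, 896, 1022 and 1063 FPM in N9, N10, N13 and N14 and at 6428, 6767, 8343 and 6958 FPM in N11, N12, N15 and N16. Every acidosis library lay far above every control library of its line, and the lowest NRK-49F value exceeded the highest NRK-52E value. The log2 fold change was 1.87 (SE 0.10, adjusted p = 1.99e-07) in NRK-52E and 2.84 (SE 0.12, adjusted p = 1.91e-08) in NRK-49F. The rise was smaller in NRK-52E, with an interaction of −0.98 (SE 0.16, adjusted p = 6.07e-05). In NRK-49F Akr1b8 took 0.0898% of all counted fragments at pH 7.4 and 0.665% at pH 6.0, a share that depends on transcript length.

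Akr1b1, the aldose reductase itself, ranged from 99.8 to 132 FPM in control and from 192 to 237 FPM in acidosis in NRK-52E. The corresponding ranges in NRK-49F were 227 to 287 and 353 to 420.2 FPM. No groups overlapped within a line. It rose by a log2 fold change of 0.90 (SE 0.11, adjusted p = 2.84e-05) in NRK-52E and 0.67 (SE 0.11, adjusted p = 0.000284) in NRK-49F, and the interaction was not significant (0.22, SE 0.15, adjusted p = 0.242). With single libraries left out, the interaction ranged from 0.053 to 0.286. Akr1b7, the third member of the group, was below the test's filter, with counts of 0, 0, 1 and 0 in N9, N10, N13 and N14 and of 16, 15, 10 and 9 in N11, N12, N15 and N16. Its counts in NRK-52E were 0 in 6 libraries and 1 and 2 in N3 and N4. In the rat assembly GRCr8, Akr1b1, Akr1b8, Akr1b10 and Akr1b7 lie next to each other in this order, and RefSeq also lists pseudogenes of Akr1b1 and Akr1b8. As multi-mapping fragments were counted, the exact levels of these genes are uncertain, and the size of that effect was not tested. Akr1b10 was not analysed here.

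Akr1a1, the aldehyde reductase that also acts on glucuronate, was the AKR gene with the most fragments in NRK-52E. Its level was 629, 535, 473 and 545 FPM in control and 905, 756, 765 and 874 FPM in acidosis in NRK-52E (libraries in the order given above). In NRK-49F it was 645, 623, 752 and 662 FPM in control and 738, 761, 748 and 711 FPM in acidosis. The NRK-52E groups were apart, while in NRK-49F the control library N13 lay within the acidosis range. Akr1a1 rose in NRK-52E by a log2 fold change of 0.58 (SE 0.11, adjusted p = 0.000835). The value in NRK-49F was 0.13 (SE 0.10, adjusted p = 0.287), and the difference between the lines of 0.44 (SE 0.14, adjusted p = 0.0161) missed the threshold. The difference was 0.28 without N3 (adjusted p = 0.124) and 0.20 with library totals (adjusted p = 0.187), and it passed without N1, at 0.51, and by DESeq2 alone. The rise in NRK-52E was 0.37 with library totals.

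The AKR7 enzymes act on the dialdehyde of aflatoxin and on succinic semialdehyde. Akr7a3, the aflatoxin aldehyde reductase, was weakly expressed, with counts of 8, 5, 6 and 4 in control and 70, 33, 62 and 45 in acidosis in NRK-52E. Counts in NRK-49F were 2, 3, 3 and 5 in control and 17, 16, 65 and 50 in acidosis. All acidosis libraries were above all control libraries in each line. The log2 fold change was 3.30 (SE 0.42, adjusted p = 4.32e-05) in NRK-52E and 3.01 (SE 0.45, adjusted p = 0.000158) in NRK-49F, with an interaction of 0.28 (SE 0.72, adjusted p = 0.778; 0.045 with library totals). Its neighbour Akr7a2, which reduces succinic semialdehyde, stood at 121, 111, 89.3 and 113 FPM in control and at 53.0, 53.4, 67.9 and 110.3 FPM in acidosis in NRK-52E. Library N8 alone among the acidosis libraries lay within the control range. The log2 fold change of −0.62 (SE 0.22, adjusted p = 0.0278) missed the threshold, and it passed without N8 (−0.93), with library totals (−0.83) and in one fit of all 16 libraries (−0.64). In NRK-49F the value was −0.32 (SE 0.11, adjusted p = 0.0298), which passed without N12, at −0.42. The interaction of Akr7a2 was −0.31 (SE 0.25, adjusted p = 0.317).

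Most AKR1C enzymes are hydroxysteroid dehydrogenases. Akr1c19 stood at 10.8, 10.7, 9.29 and 10.9 FPM in control and at 2.39, 1.53, 1.35 and 4.70 FPM in acidosis in NRK-52E. In NRK-49F it stood at 2.23, 2.73, 2.24 and 3.12 FPM in control and at 0.266, 0.199, 0.617 and 0.500 FPM in acidosis, the latter from 3 to 19 counts. The pH groups were apart in each line, with N8 the highest acidosis library of NRK-52E. Akr1c19 fell with a log2 fold change of −2.08 (SE 0.35, adjusted p = 0.000343) in NRK-52E and −2.63 (SE 0.34, adjusted p = 5.55e-05) in NRK-49F. The interaction of 0.52 (SE 0.49, adjusted p = 0.4) was not significant and was −0.01 without N8 and 0.28 with library totals.

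Akr1c12 fell in NRK-49F, from 2.5 to 4.02 FPM in control to 0.266 to 1.28 FPM in acidosis (log2 fold change −2.02, SE 0.38, adjusted p = 0.000871). In NRK-52E its value was −1.09 (SE 0.48, adjusted p = 0.063), and −1.85 without N8, where it passed. The interaction of 0.91 (SE 0.64, adjusted p = 0.25) was not significant. Akr1c14, the hepatic 3-alpha-hydroxysteroid dehydrogenase, had counts of 41, 31, 41 and 24 in control and 0, 0, 0 and 6 in acidosis in NRK-52E, where it was a DEG (adjusted p = 0.000323). In NRK-49F, where it was too low for the edgeR test, its counts were 14, 12, 4 and 13 in control and 0, 0, 0 and 3 in acidosis. DESeq2 alone called it lower there (DESeq2 adjusted p = 0.00051). The single nonzero acidosis libraries were N8 and N16. Akr1c15 was seen mainly in NRK-52E, with 4.18 to 5.97 FPM in control and 5.21 to 12.8 FPM in acidosis (log2 fold change 0.55, SE 0.28, adjusted p = 0.101, or 0.20 without N8 and 0.33 with library totals).

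Akr1e2, a reductase of 1,5-anhydrofructose that adjoins the AKR1C cluster in GRCr8, stood at 3.23, 3.03, 3.11 and 3.14 FPM in control and at 1.35, 0.899, 1.5 and 2.54 FPM in acidosis in NRK-52E. Its NRK-49F values were 5.09, 5.96, 6.58 and 3.91 FPM in control and 2.5, 2.32, 2.11 and 2.63 FPM in acidosis. Neither line showed overlap. It fell in NRK-49F (log2 fold change −1.18, SE 0.22, adjusted p = 0.00081), whereas in NRK-52E the value of −1.0 (SE 0.30, adjusted p = 0.0113) missed the threshold. It passed at −1.34 without N8, by DESeq2 alone, and at −1.21 to −1.02 with library totals, with no filter on low counts, in one fit of all 16 libraries and with the second number of the column names as a covariate, so that a fall in NRK-49F alone is not shown. The interaction was 0.16 (SE 0.37, adjusted p = 0.749), and −0.18 without N8. Akr1c1, Akr1c2, Akr1c3 and Akr1c12l1 had no count in any of the 16 libraries, where 3 counts correspond to 0.0938 to 0.199 FPM. Akr1c13 and Akr1d1, the steroid 5-beta-reductase, had mean levels of at most 0.467 and 0.109 FPM and were not tested.

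The ALDH3 enzymes oxidize medium-chain, aromatic and fatty aldehydes. Aldh3a1, known as an abundant protein of the cornea, stood at 43.0, 43.3, 33.6 and 40.4 FPM in control and at 2.14, 1.17, 1.31 and 1.79 FPM in acidosis in NRK-52E. In NRK-49F it stood at 4194, 4307, 4998 and 4693 FPM in control and at 4185, 5285, 6728 and 7389 FPM in acidosis. The NRK-52E groups were far apart, while in NRK-49F the acidosis library N11 was below all controls and the other acidosis libraries were above them. Aldh3a1 fell in NRK-52E with a log2 fold change of −4.68 (SE 0.20, adjusted p = 6.65e-08). Its value in NRK-49F was 0.36 (SE 0.16, adjusted p = 0.0749). With single libraries left out, that value ranged from 0.235 (without N16) to 0.491. The interaction of −5.06 (SE 0.27, adjusted p = 2.62e-10) passed in both tools. In the fibroblasts Aldh3a1 took 0.412% of all counted fragments at pH 7.4 and 0.566% at pH 6.0.

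The mean level of Aldh3a1 in NRK-52E was 0.881% of that in NRK-49F at pH 7.4 and 0.0272% at pH 6.0. For comparison, the fibroblast marker Pdgfra in NRK-52E was at 0.0731% of its NRK-49F level at pH 7.4 and at 0.0153% at pH 6.0, and Col1a1 at 0.380% and 0.218%. A part of RNA from the other cell line in these values was not tested.

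Aldh3b1, an oxidase of lipid-derived aldehydes, stood at 49.8, 48.5, 46.5 and 49.98 FPM in control and at 6.73, 6.56, 7.87 and 15.9 FPM in acidosis in NRK-52E. In NRK-49F it stood at 149, 139, 159.9 and 143 FPM in control and at 71.3, 68.0, 81.7 and 89.4 FPM in acidosis. N8 was the highest acidosis library of NRK-52E by a wide margin, but no groups overlapped. Aldh3b1 fell with a log2 fold change of −2.40 (SE 0.27, adjusted p = 1.63e-05) in NRK-52E, or −2.81 without N8, and of −0.94 (SE 0.10, adjusted p = 1.18e-05) in NRK-49F. The fall was larger in NRK-52E, with an interaction of −1.48 (SE 0.27, adjusted p = 0.000215). Aldh3a2, the fatty aldehyde dehydrogenase, ranged from 115 to 126 FPM in control and from 125 to 144 FPM in acidosis in NRK-52E (log2 fold change 0.13, SE 0.08, adjusted p = 0.155). In NRK-49F it ranged from 180.4 to 205 FPM and from 224 to 265 FPM (0.28, SE 0.09, adjusted p = 0.0208).

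The ALDH1A enzymes form retinoic acid from retinal. Aldh1a2, the main such enzyme of the embryo, stood at 437, 419.6, 423 and 429 FPM in control and at 86.8, 101, 97.8 and 149 FPM in acidosis in NRK-52E. In NRK-49F its counts were 4, 3, 0 and 0 in control and 0, 0, 2 and 3 in acidosis. Aldh1a2 was thus an NRK-52E transcript in these cultures, and all of the acidosis libraries there lay below all controls, with N8 the highest. It fell with a log2 fold change of −1.99 (SE 0.16, adjusted p = 1.59e-06). The interaction of −1.20 (SE 1.19, adjusted p = 0.423) rests on those few NRK-49F counts, and a difference between the lines in the pH effect was not detectable at this depth. Aldh1a1, Aldh1a3 and Aldh1a7 had mean levels of at most 0.0560, 0.557 and 0.388 FPM in any group and were not tested.

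The genes of retinoid handling around these enzymes were a list of 18. In NRK-52E 11 were tested, of which 4 rose and 3 fell (56.7% of all genes were DEGs), and in NRK-49F 3 rose and 3 fell of 10 (37.8% of all genes). Crabp2, which carries retinoic acid to the nucleus, and the receptor gene Rarg rose in NRK-52E by 1.78 and 1.20, respectively, and had values of 0.05 and −0.10 in NRK-49F. Their interactions were 1.72 (SE 0.24, adjusted p = 1.65e-05) and 1.29 (SE 0.17, adjusted p = 8.38e-06).

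Cyp26b1, which degrades retinoic acid, rose from 1.31 to 1.78 FPM to 4.47 to 7.91 FPM in NRK-52E (1.80, SE 0.24) and from 0.263 to 2.0 FPM to 7.89 to 11.7 FPM in NRK-49F (2.90, SE 0.35). The receptor gene Rara fell in both lines, with log2 fold changes of −1.19 and −1.03. Dhrs3, a reductase of retinal, rose by 0.46 and 0.44, calls that were lost without any of N2, N3, N5 and N6 (0.42 to 0.44) or with library totals (0.25) in NRK-52E and of N9, N10, N12, N14 and N15 (0.38 to 0.45) in NRK-49F. Rdh14 fell in NRK-49F (−1.20) with a value of −0.22 in NRK-52E and an interaction of 0.96 (SE 0.16, adjusted p = 7.39e-05). Rdh11 fell in NRK-49F (−0.46, no longer a DEG without N12, at −0.42, and in one fit of all 16 libraries) and had a value of −0.75 in NRK-52E. Dhrs9, a short-chain retinol dehydrogenase, was a DEG with opposite signs. It ranged from 4.01 to 5.67 FPM in control and 1.76 to 3.19 FPM in acidosis in NRK-52E (−1.01, SE 0.24), and from 158 to 187 FPM and 265 to 361 FPM in NRK-49F (0.86, SE 0.12). The interaction was −1.88 (SE 0.23, adjusted p = 3.93e-06), while the call in NRK-52E was lost without N1, N3, N6 or N7 (−0.99 to −0.87).

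Most of the remaining ALDH genes code for enzymes of mitochondrial and amino acid metabolism. Aldh2, the mitochondrial acetaldehyde dehydrogenase, stood at 723, 703, 682 and 706 FPM in control and at 482, 494, 525 and 619.6 FPM in acidosis in NRK-52E. In NRK-49F it stood at 558, 542, 558 and 577 FPM in control and at 319, 311, 377 and 312 FPM in acidosis. No groups overlapped, N8 being the acidosis library nearest to the controls in NRK-52E and N15 in NRK-49F. Aldh2 fell with a log2 fold change of −0.43 (SE 0.10, adjusted p = 0.0032) in NRK-52E and −0.78 (SE 0.09, adjusted p = 2.37e-05) in NRK-49F. The first call was lost without N2, N3 or N7, at −0.43, −0.39 and −0.41. The interaction of 0.34 (SE 0.13, adjusted p = 0.0405) was not significant at the threshold used and was 0.10 with library totals.

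Aldh16a1, an unusual family member that lacks the catalytic cysteine in mammals, stood at 64.5, 60.5, 60.6 and 62.6 FPM in control and at 23.5, 23.2, 19.9 and 20.6 FPM in acidosis in NRK-52E. In NRK-49F the values were 58.2, 58.3, 68.3 and 79.7 FPM in control and 33.5, 36.1, 44.9 and 46.0 FPM in acidosis. Both pairs of groups were separate, and control levels in the lines were similar. Aldh16a1 fell with a log2 fold change of −1.53 (SE 0.10, adjusted p = 3.66e-07) in NRK-52E and −0.73 (SE 0.13, adjusted p = 0.000564) in NRK-49F. The interaction of −0.81 (SE 0.17, adjusted p = 0.00073) passed in both tools.

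Aldh6a1, which acts in valine and pyrimidine breakdown, ranged from 151 to 166 FPM in control and from 83.6 to 112 FPM in acidosis in NRK-52E (log2 fold change −0.72, SE 0.10, adjusted p = 8.29e-05). In NRK-49F the ranges of 60.9 to 76.6 FPM and 35.8 to 62.9 FPM overlapped (−0.63, SE 0.16, adjusted p = 0.00491), and the call was lost without N9, N10, N11, N12 or N15 (−0.61 to −0.53). Aldh7a1, an enzyme of lysine breakdown, fell in both lines, with log2 fold changes of −0.37 (SE 0.10, adjusted p = 0.00618) and −0.36 (SE 0.08, adjusted p = 0.0029), or −0.58 and −0.32 with library totals. These small changes were DEGs with all libraries, but not without N1, N2, N3, N4 or N7 in NRK-52E (−0.38 to −0.32) or without N11 or N12 in NRK-49F (−0.33 and −0.35).

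Aldh9a1, which supplies carnitine synthesis, stood at 669.9, 669.7, 690.0 and 672 FPM in control and at 507, 464, 488 and 471 FPM in acidosis in NRK-49F. It fell there by 0.50 on the log2 scale (SE 0.08, adjusted p = 0.000381), and the value in NRK-52E was −0.20 (SE 0.10, adjusted p = 0.0822; −0.41 and a DEG with library totals), with an interaction of 0.28 (SE 0.12, adjusted p = 0.0582). Aldh5a1, the succinate semialdehyde dehydrogenase, fell in NRK-49F from 16.8 to 22 FPM to 12.1 to 17.8 FPM (log2 fold change −0.55, SE 0.15, adjusted p = 0.00763). These ranges overlapped, and the call was lost without N9, N10, N11, N12, N14 or N15 (−0.55 to −0.50) and with library totals (−0.51). The NRK-52E value was 0.17 (SE 0.16, adjusted p = 0.354) and the interaction 0.71 (SE 0.22, adjusted p = 0.0119), which passed without N13 (0.79) or N16 (0.84) and by DESeq2 alone. With single libraries left out, the NRK-52E value ranged from 0.063 to 0.224. Aldh1l1, a folate enzyme, had counts of 1, 2, 1 and 0 in control and 10, 10, 15 and 3 in acidosis in NRK-52E. It was called higher there by DESeq2 alone, and by both tools in one fit of all 16 libraries and with no filter on low counts. Its interaction of 3.16 (SE 1.01, adjusted p = 0.0144) missed the threshold and passed without N8 (3.45) or N10 (3.50). Aldh1b1 and Aldh8a1 had means of at most 0.0324 and 0.173 FPM and were not tested.

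**Figure D2:**
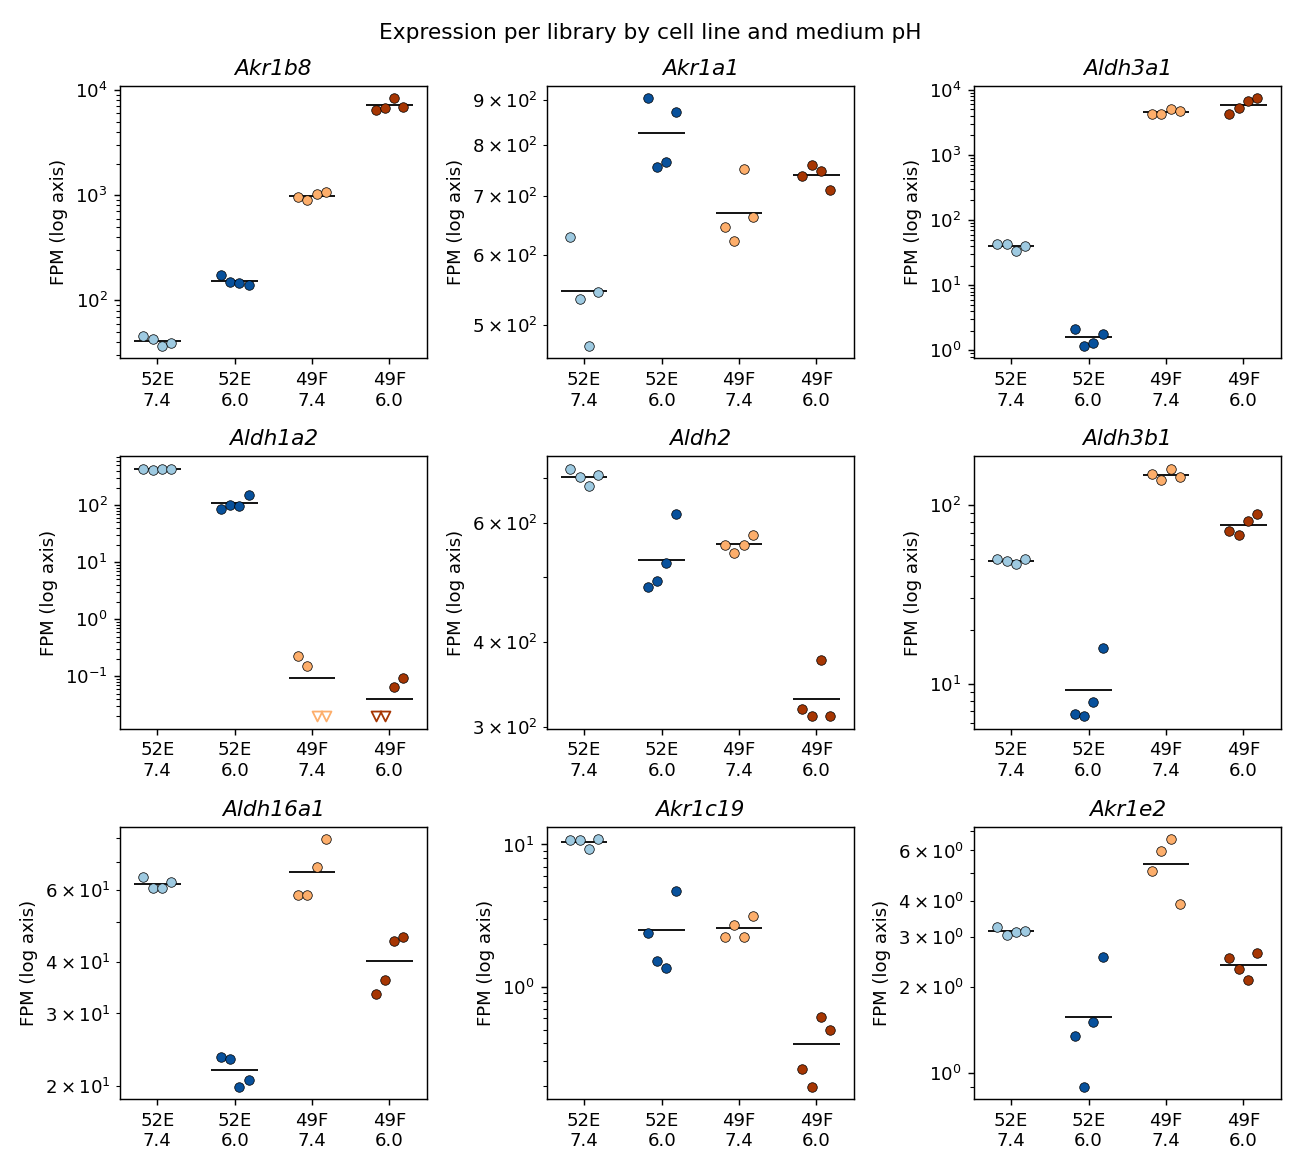
Expression in FPM (y axis, logarithmic, with its own range in each panel) of 9 members in each of the 16 libraries, grouped by cell line and medium pH, with n = 4 points per group and a line at the group mean. Open triangles at the bottom of the Aldh1a2 panel are libraries with a count of 0, and Akr1b8 is seen to reach 6428 to 8343 FPM in NRK-49F at pH 6.0.

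The interaction model over all 16 libraries asked directly which members responded to pH differently in the lines. As all cells were in co-culture, a line's own response and its response to the other line cannot be told apart. The model took the libraries as independent, although the labels do not say whether those of both lines came from the same co-cultures. Of 21 members tested, 4 were DEGs (Aldh3a1, Aldh3b1, Akr1b8 and Aldh16a1), where 36.9% of all 14679 genes tested were DEGs (19.3% positive, 17.5% negative). In all 4 the log2 effect was more negative in NRK-52E. With a more positive effect in NRK-52E there were 0 by both tools, 5 at an unadjusted edgeR p below 0.05 (Aldh1l1, Akr1a1, Aldh9a1, Aldh5a1 and Aldh2) and 2 by DESeq2 alone (Akr1a1 and Aldh5a1). Scaling by library totals moved the median interaction of all genes to −0.25 and the share of positive terms among the called from 52.4% to 33.8%. The same 4 members were called. Without N8, 5 members had a more negative and 1 a more positive effect in NRK-52E.

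The lines were then compared at each pH, with positive values where NRK-52E was higher. At pH 7.4, 15 of 19 members tested differed (66.6% of all 14026 genes, 33.3% in either direction), 6 higher and 9 lower in NRK-52E, and the groups of 15 did not overlap (70.5% of all genes). At pH 6.0, 14 of 20 differed (59.8% of 13796 genes, 28.6% higher and 31.3% lower), 5 higher and 9 lower, and 14 did not overlap (64.4%). At pH 7.4 and pH 6.0 the log2 differences were −6.74 (SE 0.13) and −11.88 (SE 0.32) for Aldh3a1, and −4.50 (SE 0.10) and −5.56 (SE 0.17) for Akr1b8. For Aldh3b1 they were −1.52 (SE 0.07) and −3.08 (SE 0.26). Aldh16a1 had −0.01 (SE 0.10, adjusted p = 0.932) at pH 7.4 and was lower in NRK-52E at pH 6.0, at −0.90 (SE 0.14, adjusted p = 9.56e-05).

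Higher levels in NRK-52E at both pH values were found for Aldh6a1 (1.26 and 1.08), Aldh2 (0.42 and 0.67, the former 0.72 with library totals), Akr1c19 (2.08 and 2.55), Akr1c15 (3.99 and 3.82) and Aldh1a2, for which the group means were 427 against 0.0951 FPM at pH 7.4 and 109 against 0.0397 FPM at pH 6.0. With the second number of the column names as a covariate, the calls at pH 6.0 were lost for Akr1c19 (1.79) and Aldh2 (0.50). Akr1c14 was higher in NRK-52E at pH 7.4 (1.5), a call lost in the fit of all 16 libraries (1.44, adjusted p = 0.0212). Besides the genes named above, Aldh5a1 (−1.40 and −0.77), Akr1b1 (−1.02 and −0.89), Aldh9a1 (−0.97 and −0.77), Aldh3a2 (−0.61 and −0.85, the former −0.30 with library totals) and Akr7a2 (−0.44 and −0.83) were higher in NRK-49F at both. Akr1e2 was so at pH 7.4 (−0.69), a call lost without N1, N2, N5, N6, N10 or N13 (−0.71 to −0.59), with library totals (−0.38) or with the second number as a covariate (−0.66), and at pH 6.0 it had −0.62 (SE 0.32, adjusted p = 0.108). The call for Akr7a2 at pH 6.0 was lost without N3, N4, N7 or N12 (−0.79 to −0.69) and with library totals (−0.69), and at pH 7.4 it was lost with library totals (−0.13), in the fit of all 16 libraries (−0.52) and with the covariate (−0.44). Akr1a1, Aldh7a1 and Akr1c12 passed at neither pH. With library totals in place of TMM the median of all genes moved to 0.34 at pH 7.4 and 0.12 at pH 6.0, the share of higher genes among those called at pH 7.4 rose from 50% to 65.7%, and 7 members were then higher and 7 lower.

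Summed over the members, AKR transcripts amounted to 832 ± 94.3 FPM (SD, n = 4) in control and 1280.2 ± 115 FPM in acidosis in NRK-52E. In NRK-49F they amounted to 2071 ± 149 FPM and 8389 ± 841 FPM. A single gene set the latter, as Akr1b8 made up 47.6% of the sum at pH 7.4 and 84.9% at pH 6.0, and without it the mean was 1085 and 1265 FPM. ALDH transcripts summed to 2042 ± 68.3 FPM and 1315 ± 121 FPM in NRK-52E. In NRK-49F they summed to 6444 ± 394 FPM and 7254 ± 1464 FPM, of which Aldh3a1 was 70.6% and 81.3%, and without Aldh3a1 the mean was 1896 and 1358 FPM. These sums weigh long transcripts more and were not tested.

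Single libraries and the second number in the column names, of unknown meaning, were followed through the results. N8 was the acidosis library nearest to the controls for 8 of the 13 member DEGs of NRK-52E, and for 47.1% of all DEGs of that line. N16 was nearest for 8 of 13 in NRK-49F, against 39.1% of all DEGs. Without N8, 4 members rose and 12 fell in NRK-52E. Of all 13934 genes then tested, 8914 were DEGs, against 7793 of 13735 with all libraries. The second number divides each line in 2 sets with 2 libraries per group, and within each set all 13 member DEGs of that line kept their sign. As these DEGs were called from the same libraries, the shared sign is no separate test of them. Akr1b8 had log2 fold changes of 1.84 and 1.89 within numbers 21 and 22 in NRK-52E and of 2.83 and 2.86 within 20 and 21 in NRK-49F. For Aldh3a1 in NRK-52E they were −4.78 and −4.60, for Aldh1a2 −2.23 and −1.80, for Aldh3b1 −2.93 and −2.04, and for Akr1a1 0.47 and 0.67, which were not DEGs with so few libraries. Aldh6a1 in NRK-49F had −1.01 and −0.28, and Aldh5a1 −0.83 and −0.28.

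Other carbonyl and aldehyde enzymes outside these families were followed in a list of 21 genes, of which Adh1 and Adh4 were not analysed here. Of 17 tested, 8 rose and 5 fell in NRK-52E (median 0.46), and 4 rose and 1 fell in NRK-49F (median −0.03), where the shares over all genes were 28.2% and 28.5% in NRK-52E and 18.4% and 19.4% in NRK-49F. Nqo1, a quinone reductase, rose by 2.0 (SE 0.12) in NRK-52E and 1.49 (SE 0.16) in NRK-49F. Gstp1, a glutathione transferase, rose by 1.21 in each line, and Hagh, the second enzyme of the glyoxalase system, by 1.34 and 0.76. The equal values of Gstp1 depend on N8, which had 1252 FPM where N3, N4 and N7 had 553 to 644 FPM. Without N8, Gstp1 was still a DEG in NRK-52E, at 0.855. Cbr3, a carbonyl reductase, ranged from 3.19 to 5.43 FPM in control and 10.9 to 14.6 FPM in acidosis in NRK-52E, a rise of 1.54 (SE 0.19). Its value in NRK-49F was −0.02 and the interaction 1.55 (SE 0.21, adjusted p = 1.07e-05). Dcxr rose by 2.03 (SE 0.49) in NRK-52E from very low levels (means of 0.236 and 1.04 FPM), a call lost without N1, N3 or N6 (1.67 to 1.86).

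Dhrs4, a carbonyl reductase of peroxisomes, fell in both lines, by 3.14 (SE 0.24) and 2.63 (SE 0.13) on the log2 scale. Xdh, the xanthine dehydrogenase, stood at 552, 602, 579.8 and 564 FPM in control and at 101, 119, 116 and 155 FPM in acidosis in NRK-52E and fell by 2.24 (SE 0.13). Its value in NRK-49F was −0.22 (SE 0.08, adjusted p = 0.0404) and the interaction −2.04 (SE 0.15, adjusted p = 1.09e-08). Ptgr2, a prostaglandin reductase, fell in NRK-52E by 1.70 and had −0.61 (adjusted p = 0.0113) in NRK-49F, with an interaction of −1.10 (SE 0.24, adjusted p = 0.00106).

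For the polyol pathway around aldose reductase, 7 of 8 listed genes were in the table and Slc5a3 was not analysed here. In each line 6 were tested, of which 2 fell in NRK-52E (28.5% of all genes) and 3 in NRK-49F (19.4%). Sord, which oxidizes sorbitol to fructose, had −0.07 (SE 0.09, adjusted p = 0.544) and −0.15 (SE 0.09, adjusted p = 0.203). Slc2a5, the fructose transporter, fell by 1.80 and 1.79, and Tkfc, a kinase of fructose breakdown, by 1.79 and 0.56 with an interaction of −1.24 (SE 0.21, adjusted p = 0.000106). Nfat5, the osmotic regulator of aldose reductase, fell in NRK-49F (−0.55, SE 0.14), a call lost without N9, N10, N11, N12, N14 or N15 (−0.57 to −0.48) or with library totals (−0.51), and had −0.08 in NRK-52E.

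Enzymes that make or feed the aldehyde substrates were a list of 15, of which Prodh was not analysed here. In NRK-52E 3 of 9 tested rose, Dbt (0.97), Bckdha (0.85) and Hibch (0.54), where 28.2% of all genes rose. Bckdhb and Hibadh, which like them act in branched-chain amino acid breakdown, had −0.30 (adjusted p = 0.0972) and −0.20 (adjusted p = 0.149) there. The values of Dbt, Bckdha and Hibch in NRK-49F were 0.01, −0.07 and −0.04. The interactions of Dbt (0.95, SE 0.18) and Bckdha (0.91, SE 0.19) passed, that of Hibch (0.57, SE 0.19, adjusted p = 0.0176) did not, and Hibch lost its call without N1, N2, N5, N6 or N7 (0.49 to 0.58) and with library totals (0.33). In NRK-49F 1 of 10 tested rose and 2 fell (18.4% and 19.4% of all genes). The rise was that of the monoamine oxidase gene Maoa (0.55, with 0.00 in NRK-52E and an interaction of −0.57). Aass, the first enzyme of lysine breakdown upstream of Aldh7a1, fell from a mean of 1.67 to 0.168 FPM (−3.34, SE 0.39). Hibadh fell in NRK-49F as well (−0.42), except without N9, N10, N11, N12 or N15 (−0.41 to −0.36). Nfe2l2, the gene of Nrf2, and Keap1, whose protein binds Nrf2, had log2 fold changes of 0.91 and 0.05 in NRK-52E and of −0.37 and 0.03 in NRK-49F, and the Nfe2l2 call in NRK-49F was lost without any single library but N14 (−0.39 to −0.33), with library totals (−0.32) and with no filter on low counts (−0.35).

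Promoters from RefSeq (GRCr8) were matched by symbol for 27 of the 33 members. The entries for Akr1b1, Akr1c1, Akr1d1, Aldh1a7, Aldh2 and Aldh3a1 were missing. The 250 bases before each start were searched on both strands for TGACNNNGC (the core of the antioxidant response element), for TGANTCA (the AP-1 site, which can overlap the former) and for TATAAA. TGACNNNGC was in 10.1% of all 33469 promoters and in those of Akr1c15, Aldh16a1 and Aldh1a2, TGANTCA in 6.34% and in that of Akr1c2, and TATAAA in 12.9% and in those of Akr1c19 and Akr1c3. Of the 7 members with a promoter that moved the same way in both lines, Aldh3b1, Aldh6a1 and Aldh7a1 fell and held no match. The promoters of both that rose and of those that fell and held a match are given below 5′ to 3′ on the strand of the gene, in lower case with a matched motif in capitals. Akr1b8 (chr4:63964171-63964420, plus strand) and Akr7a3 (chr5:156876471-156876720, plus strand), which rose, held no match, Aldh16a1 (chr1:104776271-104776520, minus strand), which fell, held TGACCCCGC from 47 bases before the start, and Akr1c19 (chr17:70913666-70913915, plus strand), which fell, held TATAAA on the other strand, from 190 bases before the start.
Akr1b8: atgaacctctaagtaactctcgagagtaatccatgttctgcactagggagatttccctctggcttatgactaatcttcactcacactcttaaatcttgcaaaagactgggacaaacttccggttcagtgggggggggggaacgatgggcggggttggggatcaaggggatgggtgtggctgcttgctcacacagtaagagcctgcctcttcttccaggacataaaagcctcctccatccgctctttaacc
Akr7a3: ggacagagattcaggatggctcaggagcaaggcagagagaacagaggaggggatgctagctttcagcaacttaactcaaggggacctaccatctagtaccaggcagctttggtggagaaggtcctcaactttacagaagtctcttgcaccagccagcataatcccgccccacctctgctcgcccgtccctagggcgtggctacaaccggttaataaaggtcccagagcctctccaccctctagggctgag
Aldh16a1: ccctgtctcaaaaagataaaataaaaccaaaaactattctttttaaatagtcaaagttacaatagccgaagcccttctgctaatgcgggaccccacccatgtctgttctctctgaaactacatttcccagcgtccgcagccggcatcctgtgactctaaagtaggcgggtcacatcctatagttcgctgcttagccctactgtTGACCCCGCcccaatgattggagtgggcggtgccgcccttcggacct
Akr1c19: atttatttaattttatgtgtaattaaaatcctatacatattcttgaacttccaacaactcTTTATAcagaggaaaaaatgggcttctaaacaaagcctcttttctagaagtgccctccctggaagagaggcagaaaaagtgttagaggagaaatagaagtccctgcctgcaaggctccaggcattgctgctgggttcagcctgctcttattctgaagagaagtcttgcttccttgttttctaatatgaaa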

How the data were processed

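The authors deposited whole-number counts of fragments per Ensembl gene without normalization. Reads were paired (150 bases) from poly(A)-enriched RNA. The paper names tophat2 and the rat genome rn6, the submitters' processing notes name HISAT2 2.1.0, and both name featureCounts, run with multi-mapping fragments included. Which aligner made the table was not settled, and use of strand is not stated, so fragments of paralogs, pseudogenes and overlapping genes cannot be told apart. The 16 libraries were grouped by their labels, 4 per group, and none was left out.

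From these counts, FPM was computed with edgeR 4.0.16 (TMM over all libraries). Tests used edgeR (filterByExpr, glmQLFit, glmQLFTest) and DESeq2 1.42.0 (Wald test, own size factors) in R 4.3.3 on all genes, with a Benjamini-Hochberg FDR below 0.01 in both, SE as the absolute log2 fold change over the square root of F, and an interaction in one model of all libraries. They were tested on simulated data, in which 200 of the 13339 to 14679 genes of a comparison were changed. There, log2 changes of 1 were recovered in 55% of cases in NRK-52E, 77% in NRK-49F and 40% for the interaction. Between the lines these shares were 71% at pH 7.4 and 59% at pH 6.0. Log2 changes of 2 were recovered in 84% to 97% of cases. False calls were 0% to 1.39% of the calls. A far larger share of genes were DEGs in the real data, which alters the FDR cut. The shares recovered therefore do not give how many real changes were missed. Figures used Python 3.11.15 and matplotlib 3.10.9. Members and lists were chosen with earlier results of these data known. Values per library are given for members called by pH by at least 1 on the log2 scale and with at least 5 FPM in a line, and for the member with the most fragments in each family; of each list, up to 3 largest rises and falls per line are named, and further genes were chosen after their values were seen. 1 gene that enters the counts is not reported here. Alternatives were DESeq2 or edgeR alone, RLE factors, library totals, no filter, at least 1 CPM in 4 libraries, an FDR of 0.05, one fit of 16 libraries, each library left out, and the second number of the column names as covariate and, added after seeing the data, as a split. Floors of 3 counts cover counting error only.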

Additional observations from a re-analysis of the deposited data

Results flagged for a closer look

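In 7 of 80 groups of member values, 1 library lay beyond the critical value of Dixon's test for 4 libraries, which chance alone gives in about 4. The test takes the gap between 1 library and the nearest of the other 3 as a share of the range of the group. Gaps below the critical value were not counted, even where they made up most of the range. In the 2 groups of Akr1c14 the other libraries were at 0, so that any count is flagged and they say nothing against chance. In NRK-52E at pH 6.0 the library set apart was N8 for Aldh3b1 (15.9 FPM, others 6.56 to 7.87), Akr1c12 (1.83 FPM, others 0.360 to 0.612) and Akr1c14 (0.282 FPM, others 0). In NRK-52E at pH 7.4 it was N5 for Akr1c19 (9.29 FPM, others 10.7 to 10.9). For NRK-49F they were N13 at pH 7.4 for Aldh9a1 (690.0 FPM, others 669.7 to 672, a small gap in a narrow group), and at pH 6.0 N15 for Aldh2 (377 FPM, others 311 to 319) and N16 for Akr1c14 (0.0938 FPM, others 0). The cause of these values was not tested.

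The log2 effect of pH 6.0 differed between the cell lines by the interaction test for 4 members and, marker genes left aside, for 12 other named genes, given as NRK-52E minus NRK-49F. For members it was −5.06 for Aldh3a1, −1.48 for Aldh3b1, −0.98 for Akr1b8 and −0.81 for Aldh16a1. More negative effects in NRK-52E were also seen for Xdh (−2.04), Dhrs9 (−1.88), Tkfc (−1.24), Ptgr2 (−1.10) and Maoa (−0.57). More positive ones were seen for Bckdha (0.91), Dbt (0.95), Rdh14 (0.96), Nfe2l2 (1.27), Rarg (1.29), Cbr3 (1.55) and Crabp2 (1.72).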

How the results depend on the processing

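With edgeR alone, the fit was that of the main results, so no direction could change and no call could be lost. Among its 130 results 0 were newly called. All results of RLE factors (130) and those left by the filter on 1 CPM (126) kept their direction and call. That filter took 4 out of the test, among them the rise of Akr7a3 in NRK-49F, where 2 members then rose in place of 3. Library totals kept 114 of 130, with 4 newly called, 8 no longer called and 4 of the other sign. The latter were the interactions of Akr1b1 (−0.03) and Akr1e2 (−0.086) and the NRK-52E values of Aldh3a2 (−0.075) and Aldh5a1 (−0.038), none of them a call. Within number 21 the NRK-52E value of Aldh5a1 was −0.076. Member counts left the range of 1.5 times for NRK-49F higher (3) with DESeq2 alone (5), for NRK-49F lower (10) within number 21 (2) and NRK-52E lower (9) within number 22 (4), each with 2 libraries per group, for higher in NRK-52E than in NRK-49F at pH 6.0 (5) with the second number as a covariate (3, without Akr1c19 and Aldh2), and for positive interactions (0) with DESeq2 alone (2) and an FDR of 0.05 (4). Akr1b7 was 1 of the genes added in NRK-49F by DESeq2. Leaving out each library in turn gave 4 to 4 higher and 7 to 12 lower in NRK-52E, 3 to 3 and 8 to 11 in NRK-49F, 0 to 1 and 4 to 5 for the interaction, 6 to 6 and 8 to 9 between lines at pH 7.4, and 5 to 5 and 8 to 9 at pH 6.0. It turned the sign of 3 of 1238 values, all uncalled interactions (Akr1c19 −0.014 to 0.80, Akr1e2 −0.18 to 0.36, Akr7a3 −0.16 to 0.56), and ended 71 calls. The cause of these shifts was not tested beyond the smaller number of libraries. No paired analysis was possible because each library number (N1 to N16) occurs once; the second number, shared by 2 libraries in each pH group of a line, was used as the covariate and split above. Depth limits members below 1 FPM, for which a few counts decide.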
